A study of Homo sapiens with 6 samples.

Results

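Potassium channel genes encode the pores that let potassium ions cross membranes and the auxiliary subunits that sit on those pores. Their transcripts were read across 6 RNA-seq libraries from MDA-MB-231 cultures exposed to PCI-24781 or to its solvent. Members were the genes whose NCBI Gene ID carries a current symbol made of KCN, a family letter code and, in most, a number, with antisense transcripts left out. This gave 75 genes of the 16623 in the files, 61 for pore-forming subunits and 14 for auxiliary or regulatory subunits. A further 21 protein-coding genes with such symbols were not analysed here.

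MDA-MB-231 is an established line of triple-negative breast cancer, and PCI-24781 is a hydroxamate inhibitor of histone deacetylases (HDACs). The compound was used at 100 nM or 200 nM beside a DMSO control, and RNA was taken after 24 h or 48 h. Each of the 6 conditions had 1 library, so there are no replicates and no significance test was run. Levels are in FPKM, a unit that divides fragments by transcript length and library depth and so allows comparison between genes.

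Pore-forming subunits assemble around a selective path for potassium and open with voltage, with calcium or with other signals, and outward potassium flow sets the negative membrane potential. In cells that are not excitable, that potential is a driving force for calcium entry and bears on cell volume. Auxiliary subunits change the gating or the surface level of the pores and carry no potassium current themselves.

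The depth inferred from steps between low values was between 16300000 and 18800000 fragments a library. A transcript of 2 kb with 3 fragments would then read between 0.081 and 0.094 FPKM. Intervals below are 95% Poisson intervals on approximate fragment numbers and cover counting error only, not variation between cultures. Markers of the line were abundant, with VIM between 1629.38 and 2053.39 FPKM, MSN between 365.04 and 503.51, AXL between 333.36 and 486.08, CAV1 between 189.86 and 218.67 and CD44 between 154.04 and 218.74. The luminal receptor genes ESR1 and PGR stayed at or below 0.04 FPKM, and the epithelial cadherin gene CDH1 at or below 0.39. Other epithelial and receptor genes were present, with KRT18 between 89.03 and 110.61, KRT8 between 61.52 and 99.32, ERBB2 between 13.16 and 21.36 and EPCAM between 2.26 and 4.70.

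Before the results, the libraries themselves need description, because the DMSO libraries differed. The rule for a call was a 2-fold difference in FPKM + 1, with an FPKM of 1 or more in either library. From DMSO 24 h to DMSO 48 h, 1 of 13 potassium channel genes tested passed the rule upward and 0 downward, beside 286 of all 11490 tested genes upward (2.49%) and 15 downward (0.131%). The member was KCNS3. With 100 nM, several members differed from DMSO in opposite directions at the 2 times. DMSO 24 h and 100 nM 48 h had the most genes listed at 0, with 1708 and 1614, where the other libraries had 1130 to 1391. Time in culture and a property of either DMSO library cannot be told apart. The labels were used as given, and whether each library carries the label of its own culture was not tested. Values against the DMSO library of the other time stand beside the results of most members described at length. In bulk RNA, more RNA per cell and more cells expressing a gene cannot be told apart. The pseudocount of 1 understates differences of genes with low FPKM.

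The upstream sequences of 2 members are shown because KCNS3 was the member called higher at 24 h against DMSO 24 h and KCNK6 had the lowest log2 difference at 200 nM 24 h. They are the 250 bases before the first start that RefSeq lists for each gene, on build GRCh38.p14, with the hexamer GGGCGG or its reverse complement CCGCCC in capitals. The KCNS3 window is chr2:17877597-17877846 on the plus strand and overlaps 0 bases of exons in GENCODE release 29. The KCNK6 window is chr19:38319595-38319844 on the plus strand, with 1 base in an exon.
KCNS3: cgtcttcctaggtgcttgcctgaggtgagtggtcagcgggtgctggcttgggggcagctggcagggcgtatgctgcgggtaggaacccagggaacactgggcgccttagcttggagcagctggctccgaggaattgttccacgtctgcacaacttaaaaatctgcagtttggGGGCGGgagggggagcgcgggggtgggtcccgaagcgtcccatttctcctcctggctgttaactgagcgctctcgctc
KCNK6: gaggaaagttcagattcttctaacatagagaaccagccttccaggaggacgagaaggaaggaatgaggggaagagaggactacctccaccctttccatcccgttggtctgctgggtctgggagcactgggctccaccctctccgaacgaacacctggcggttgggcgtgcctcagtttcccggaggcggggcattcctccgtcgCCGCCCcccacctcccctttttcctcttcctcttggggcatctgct
Each window held 1 copy of the hexamer, counted on both strands. Among the first-listed windows of 27305 genes, 42.3% held it. TATAAA and TGACTCA, on both strands, and the palindrome CACGTG were found in neither window, and occurred in 11.1%, 4.16% and 6.49% of all windows. Of the 16 members that reached an FPKM of 1, 14 had a window, and 8 of these (57.1%) held the hexamer. The 42.3% covers genes whatever their level here, so the 2 shares are of unlike sets. Of the 14 windows, 5 lay wholly within annotated exons, and 2 of those 5 were among the 8. Over all members the comparison is void, because 56 of 75 (74.7%) had a window and 80% were required.

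Most potassium channel genes were at low levels in these cells. In DMSO 24 h, 11 of the 75 had an FPKM of at least 1, and 20 were listed at 0. With 100 nM and 200 nM for 24 h, 14 and 15 reached that level, and in the 48 h libraries 13 did with DMSO, 12 with 100 nM and 15 with 200 nM. Below 1 in both DMSO libraries were 62 members. In total, 16 members (21.3%) reached an FPKM of 1 in some library, against 71.5% of all genes, 24 stayed below 0.1 in all 6 libraries and 35 peaked between these bounds. The FPKM summed over members was 80.8, 92.8 and 83.2 in DMSO, 100 nM and 200 nM at 24 h. At 48 h the sum was 95.3, 97.0 and 101 in the same order.

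**Figure D1:**
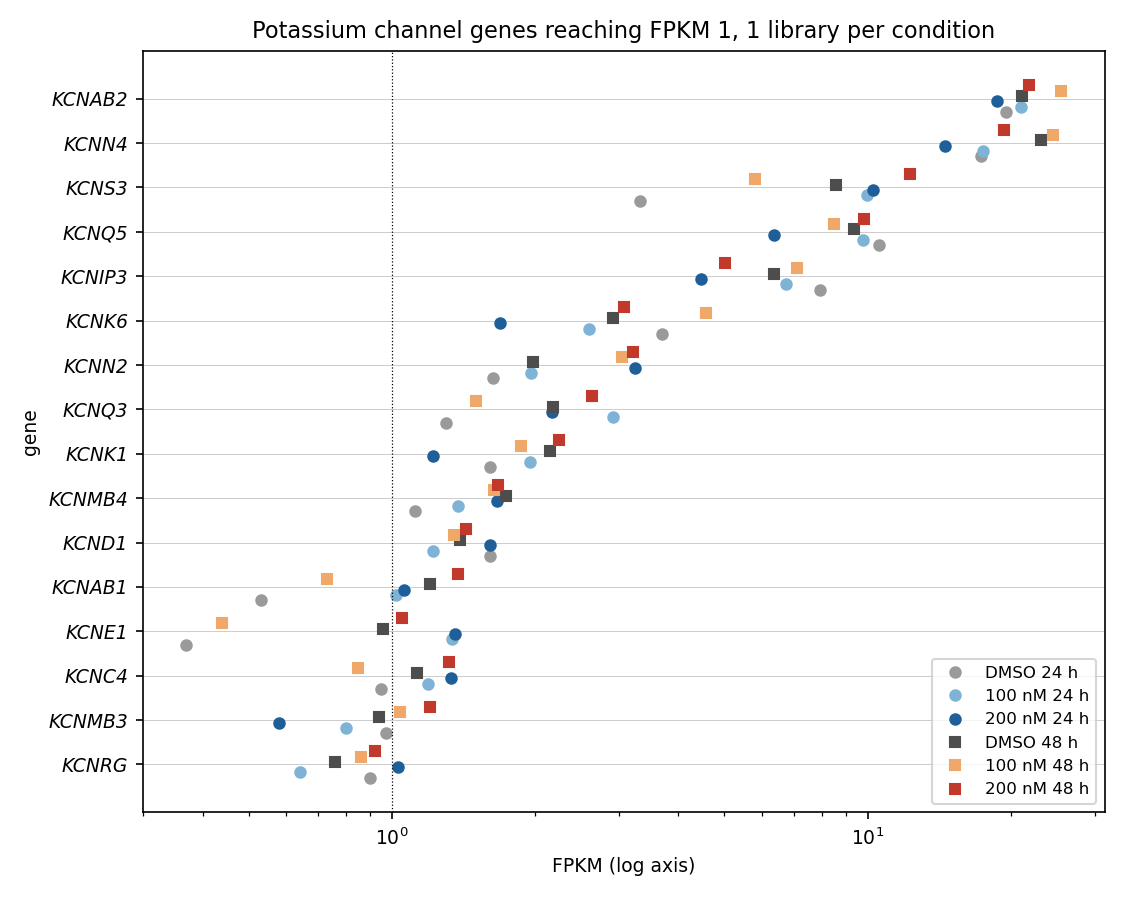
FPKM (log axis) of the 16 potassium channel genes that reached an FPKM of 1, with 1 point per library, circles for 24 h and squares for 48 h. KCNAB2 and KCNN4 lie at the top in every library, and the dotted line marks an FPKM of 1.

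The highest level in any library belonged to an auxiliary subunit, KCNAB2, although the pore gene KCNN4 lay above it in DMSO 48 h. KCNAB2, a cytoplasmic beta subunit of voltage-gated channels with an aldo-keto reductase fold, had FPKM values of 19.54 with DMSO, 20.96 with 100 nM and 18.71 with 200 nM after 24 h, and of 21.09, 25.50 and 21.85 after 48 h. Its highest and lowest libraries differed 1.36-fold. KCNN4, the calcium-activated channel of intermediate conductance, had 17.27, 17.46 and 14.55 FPKM in DMSO, 100 nM and 200 nM at 24 h and 23.11, 24.56 and 19.35 at 48 h. It was lowest at 200 nM within each time, with fragment ratios to DMSO of 0.841 (0.753 to 0.940) at 24 h and 0.837 (0.758 to 0.925) at 48 h. With the DMSO library of the other time, its log2 difference at 200 nM was -0.63 for 24 h and 0.16 for 48 h, so the direction at 48 h turned with the reference. These members alone gave between 40.0% and 51.6% of the summed member FPKM of a library.

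KCNS3, the gene for an electrically silent subunit that modifies other voltage-gated subunits, showed the largest log2(FPKM + 1) difference of any member at 24 h. It lies on chromosome 2 from 18059114 to 18114225 in the hg19 coordinates of the files (NCBI Gene ID 3790). After 24 h its FPKM was 3.33 with DMSO, 9.96 with 100 nM and 10.24 with 200 nM, and after 48 h it was 8.59, 5.79 and 12.28. DMSO 24 h was the lowest library and 200 nM 48 h the highest, and both PCI-24781 libraries of 24 h lay above DMSO 48 h by less than their separation from DMSO 24 h. Against DMSO 24 h, the fragment ratio was 2.98 (2.46 to 3.62) at 100 nM and 3.07 (2.54 to 3.73) at 200 nM. Between these doses it was 1.03 (0.897 to 1.18), so no dose step was detectable at 24 h. At 48 h the ratio to DMSO was 0.676 (0.573 to 0.795) at 100 nM and 1.43 (1.24 to 1.64) at 200 nM.

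By the 2-fold rule, KCNS3 was the only member called at 24 h. At 100 nM 24 h, 1 of 14 members tested was higher and 0 were lower, where 1.35% of 11475 genes were higher and 0.131% lower, and the log2 difference of KCNS3 was 1.34. At 200 nM 24 h, 1 of 15 was higher and 0 were lower, beside 4.47% of 11660 genes higher and 1.48% lower, with KCNS3 at 1.38. The call rests on the DMSO 24 h library. With DMSO 48 h as the reference, an alternative chosen after seeing the data, KCNS3 had log2 differences of 0.19 for 100 nM and 0.23 for 200 nM, both of 24 h, and 0 members were called at either dose. The log2 difference of KCNS3 between the DMSO libraries was itself 1.15, and their fragment ratio was 2.57 (2.11 to 3.13).

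At 48 h no member was called. At 100 nM 48 h, 0 of 14 members were higher and 0 lower, beside 0.0608% of 11514 genes higher and 0.408% lower. At 200 nM 48 h it was 0 of 15 in each direction, beside 0.206% of 11665 genes higher and 0.06% lower. KCNS3 had log2 differences of -0.50 and 0.47 at these doses. Against DMSO 24 h they were 0.65 and 1.62, so the sign at 100 nM 48 h turned with the reference, and at 200 nM 48 h KCNS3 was then called. In the dose steps, 0 of 15 members were called higher or lower from 100 nM to 200 nM at 24 h (0.343% and 0.18% of 11651 genes) and 0 of 15 at 48 h (1.71% and 0.291% of 11694 genes). KCNS3 came close in the latter, at 0.97.

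**Figure D2:**
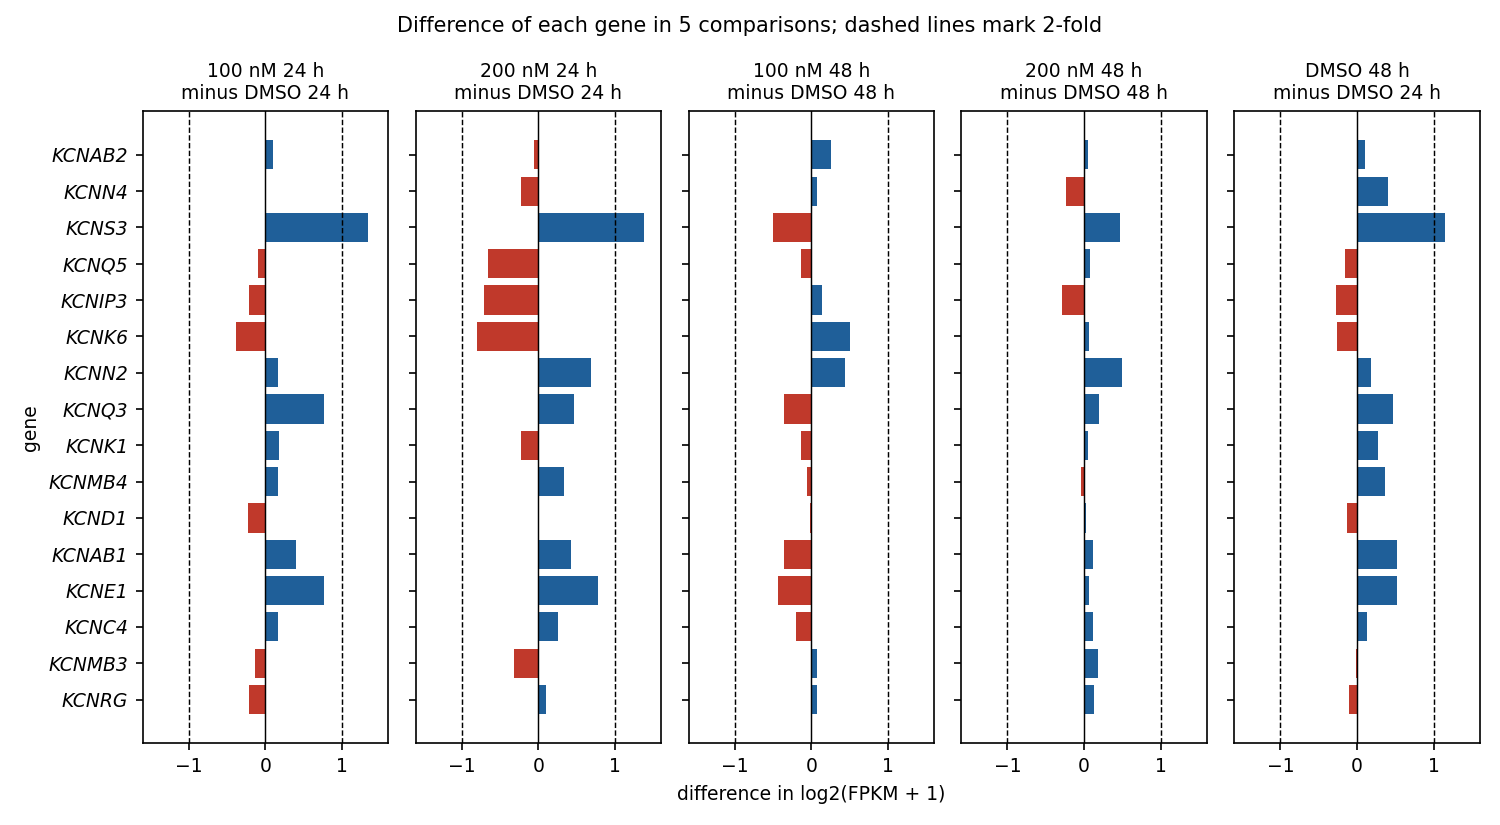
Difference in log2(FPKM + 1) for the 16 expressed members in 5 comparisons, blue for higher and red for lower, with dashed lines at 2-fold. KCNS3 passes the line in both 24 h comparisons and between the DMSO libraries, and no bar passes it at 48 h.

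The auxiliary subunit KCNE1, best known as the partner of KCNQ1 in the slow cardiac current, had a pattern like that of KCNS3 at a lower level. After 24 h its FPKM was 0.37 with DMSO, 1.34 with 100 nM and 1.36 with 200 nM, and after 48 h it was 0.96, 0.44 and 1.05. DMSO 24 h and 100 nM 48 h were the low libraries. The fragment ratio to DMSO 24 h was 3.59 (2.21 to 6.06) at 100 nM and 3.64 (2.24 to 6.13) at 200 nM, while the log2 differences were 0.77 and 0.78 with the pseudocount of 1 and 1.62 and 1.64 with a pseudocount of 0.1. KCNE1 thus passed the 2-fold line at 24 h only with a smaller pseudocount or after rescaling to TPM. Against DMSO 48 h the log2 differences of KCNE1 at 24 h were 0.26 and 0.27, and against DMSO 24 h those at 48 h were 0.07 and 0.58. KCNQ1 itself did not exceed 0.04 FPKM.

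KCNQ3, a subunit of the M-current of neurons, had 1.30, 2.91 and 2.17 FPKM in DMSO, 100 nM and 200 nM at 24 h and 2.18, 1.5 and 2.64 at 48 h. KCNAB1, another cytoplasmic beta subunit, had 0.53, 1.02 and 1.06 at 24 h and 1.20, 0.73 and 1.38 at 48 h. Both were lowest in DMSO 24 h and next lowest at 100 nM 48 h. For KCNQ3 the fragment ratio to DMSO was 2.24 (1.86 to 2.70) at 100 nM 24 h and 0.686 (0.569 to 0.827) at 100 nM 48 h. For KCNAB1 these ratios were 1.91 (1.21 to 3.06) and 0.608 (0.404 to 0.906). The sizes, and some of the signs, depend on the DMSO library. Against DMSO 48 h, KCNQ3 had log2 differences of 0.30 and 0.00 with 100 nM and 200 nM for 24 h, and KCNAB1 had -0.12 and -0.09. Against DMSO 24 h, the 100 nM 48 h values were 0.12 for KCNQ3 and 0.18 for KCNAB1. KCNC4, a fast voltage-gated pore, had 0.95, 1.19 and 1.33 FPKM at 24 h and 1.13, 0.85 and 1.32 at 48 h. KCNMB4, a beta subunit of the large-conductance calcium-activated channel, had 1.12, 1.38 and 1.66 at 24 h and 1.74, 1.64 and 1.67 at 48 h. KCNMA1, the pore gene of that channel, reached no more than 0.25 FPKM.

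KCNN2, a calcium-activated channel of small conductance, was the only one of the 16 whose FPKM was ordered upward with dose at both times. The share of all genes so ordered at both times is not given here, so this order does not set KCNN2 apart from other genes. It had 1.63, 1.96 and 3.25 FPKM at 24 h and 1.98, 3.04 and 3.21 at 48 h. The fragment ratio of 200 nM to DMSO was 1.99 (1.46 to 2.75) at 24 h and 1.61 (1.19 to 2.19) at 48 h. The step from 100 nM to 200 nM at 48 h was within counting error, at 1.05 (0.800 to 1.38). Its log2 differences at 200 nM, 0.69 and 0.50, stayed below the 2-fold line. With the DMSO library of the other time they were 0.51 and 0.68, while 100 nM 24 h was at -0.01.

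**Figure D3:**
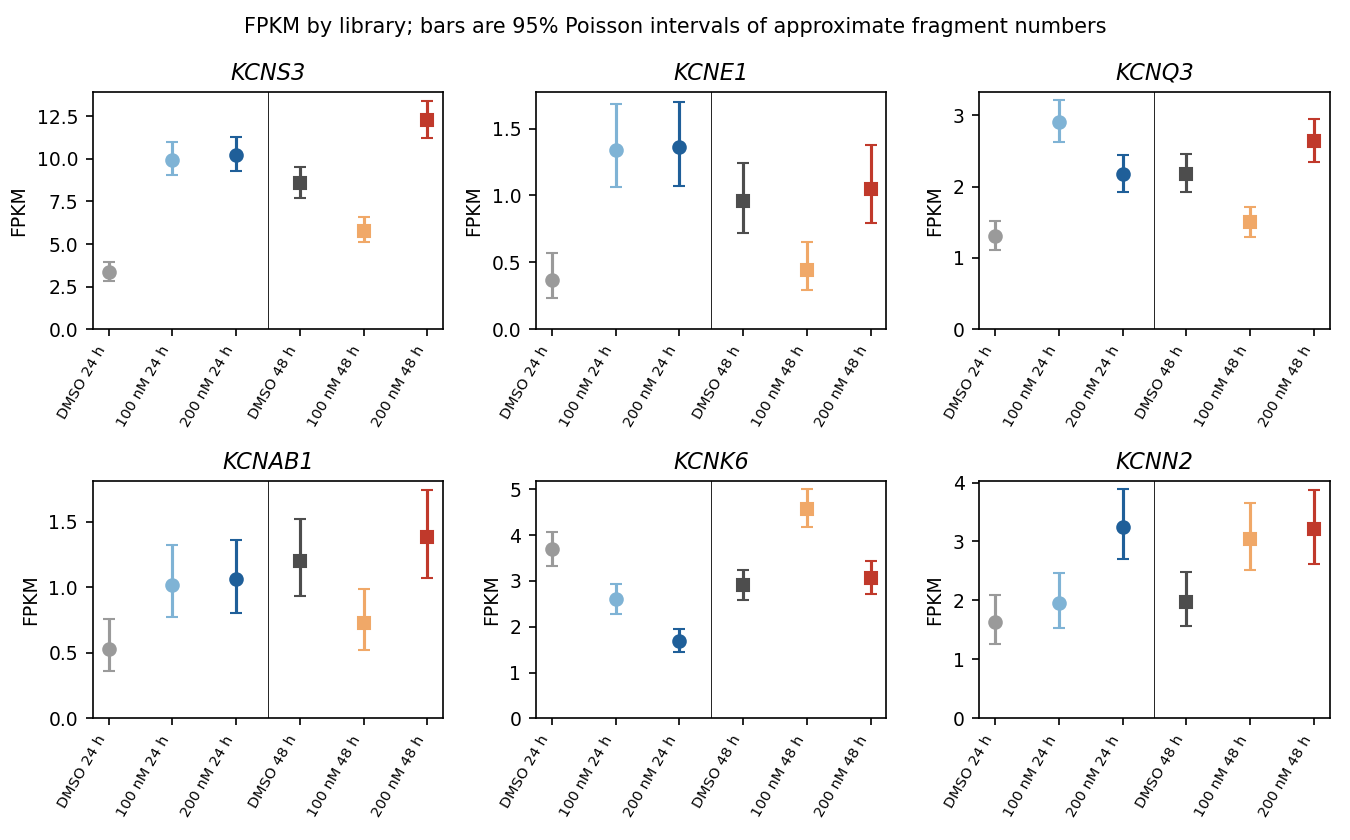
FPKM of 6 members in each library, with bars for 95% Poisson intervals of approximate fragment numbers and a vertical line between the times. KCNS3, KCNE1, KCNQ3 and KCNAB1 are low in DMSO 24 h and at 100 nM 48 h, KCNK6 is lowest at 200 nM 24 h and highest at 100 nM 48 h, and KCNN2 is higher at 200 nM than in DMSO at both times.

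At 200 nM 24 h, 7 of the 16 members had their lowest FPKM, among them KCNAB2 and KCNN4, beside 23.2% of all genes that reached an FPKM of 1. KCNK6, a background channel of the tandem-pore family, had 3.69, 2.60 and 1.69 FPKM at 24 h and 2.91, 4.57 and 3.07 at 48 h. Its fragment ratio to DMSO was 0.459 (0.382 to 0.550) at 200 nM 24 h, but 1.57 (1.36 to 1.82) at 100 nM 48 h and 1.05 (0.894 to 1.24) at 200 nM 48 h. The log2 difference at 200 nM 24 h was -0.80, and -0.54 against DMSO 48 h. KCNK6 passed the 2-fold line there, at -1.08, only with a smaller pseudocount. KCNIP3, a calcium-binding partner of KCND channels that also acts as a transcriptional repressor, had 7.94, 6.75 and 4.47 FPKM at 24 h and 6.37, 7.11 and 5.01 at 48 h. It was lowest at 200 nM within each time, with ratios of 0.565 (0.462 to 0.688) and 0.788 (0.638 to 0.970). Its log2 difference at 200 nM 24 h was -0.71, and -0.43 against DMSO 48 h. KCNQ5, an M-current subunit, had 10.57, 9.80 and 6.35 FPKM at 24 h and 9.35, 8.49 and 9.85 at 48 h. Its ratio at 200 nM was 0.601 (0.548 to 0.659) at 24 h and 1.05 (0.965 to 1.15) at 48 h. The log2 difference of KCNQ5 at 200 nM 24 h was -0.65, and -0.49 against DMSO 48 h. KCNMB3, a second beta subunit of the large-conductance channel, had 0.97, 0.80 and 0.58 FPKM at 24 h and 0.94, 1.04 and 1.20 at 48 h.

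The other members of the 16 had no dose order at 24 h. KCNK1, a weakly conducting tandem-pore channel, had 1.61, 1.95 and 1.22 FPKM at 24 h and 2.15, 1.87 and 2.25 at 48 h. KCND1, a pore for transient outward current, had 1.61, 1.22 and 1.61 at 24 h and 1.39, 1.35 and 1.43 at 48 h. KCNRG, a soluble protein that interferes with the assembly of voltage-gated channels, had 0.90, 0.64 and 1.03 at 24 h and 0.76, 0.86 and 0.92 at 48 h, ordered upward with dose at the later time. Of the 16 members, 6 were ordered upward and 4 downward with dose at 24 h, and 3 upward and 0 downward at 48 h, whatever the size of the steps. Over all 11893 genes that reached an FPKM of 1, 32.3% were ordered upward and 30.4% downward at 24 h, with 10.3% upward and 11.3% downward at 48 h. Comparing the times, which share no library, 11 of the 16 differed from DMSO in opposite directions at 24 h and 48 h with 100 nM, and 6 with 200 nM, counting differences of any size. Over all these genes, 7673 (64.5%) did so with 100 nM and 3450 with 200 nM, so a turn in direction was the common case with 100 nM.

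Among the members below an FPKM of 1, 19 reached 0.3 in some library. Some, such as KCNK7 and KCNH3, did so only with PCI-24781. This choice favours counts above DMSO, so the counts are descriptive only. With a pseudocount of 0.1, 18 of the 19 exceeded DMSO 24 h after 24 h of 100 nM and 1 was lower, while 200 nM gave 15 and 4. Of the 1486 genes in the files at that level, chosen in the same way, 68.4% and 74.0% exceeded DMSO 24 h. In DMSO 48 h, without PCI-24781, 13 of the 19 members also exceeded DMSO 24 h and 4 were lower, beside 66.4% of the 1486 genes higher. At 48 h, 6 were higher and 13 lower at 100 nM, and 14 and 5 at 200 nM, where 34.5% and 65.9% of those genes were higher. The 4 with the largest log2 difference at 200 nM 24 h had few fragments in DMSO 24 h. They were picked by that difference, so exceeding DMSO 24 h there follows from the choice. The intervals for that comparison take no account of the choice and are descriptive only. KCNH3, a voltage-gated pore of the EAG group found mainly in brain, had 0.04, 0.20 and 0.75 FPKM at 24 h and 0.14, 0.27 and 0.36 at 48 h. Its ratio at 200 nM 24 h was 18 with an interval from 5.83 to 90.1, since DMSO 24 h held about 3 fragments. KCNU1, a pH-sensitive channel of sperm, had 0.03, 0.35 and 0.50 FPKM at 24 h and 0.37, 0.04 and 0.63 at 48 h. It was near 0 in DMSO 24 h and at 100 nM 48 h, with about 2 and 3 fragments. Its ratio to DMSO was 17.1 (4.38 to 147) at 200 nM 24 h and 0.118 (0.0228 to 0.387) at 100 nM 48 h. KCNK15, a tandem-pore family member, had 0.09, 0.31 and 0.54 FPKM at 24 h and 0.22, 0.13 and 0.52 at 48 h. KCNJ12, an inward rectifier, had 0.13, 0.31 and 0.66 at 24 h and 0.44, 0.14 and 0.41 at 48 h. Both exceeded their DMSO value at 200 nM 24 h, but KCNJ12 is uncertain because KCNJ18 is a near-identical copy. With the pseudocount of 0.1, the log2 differences at 200 nM 24 h were 2.60 for KCNH3, 2.21 for KCNU1, 1.75 for KCNK15 and 1.72 for KCNJ12. Against DMSO 48 h, a reference chosen after seeing the data, they were 1.82, 0.35, 1.0 and 0.49, and at 100 nM 24 h KCNU1 and KCNJ12 were at -0.06 and -0.40. At 100 nM 48 h KCNU1 was at -1.75 against DMSO 48 h and at 0.11 against DMSO 24 h. KCNJ11, the pore of the ATP-sensitive channel, had 0.24, 0.40 and 0.59 at 24 h and 0.36, 0.26 and 0.56 at 48 h. At 200 nM 24 h, the other end held the mechanosensitive tandem-pore channel KCNK2, the small-conductance channel KCNN3, the auxiliary subunit KCNE4 and the inward rectifier KCNJ14. Their log2 differences ran from 0.09 down to -0.51. KCNE4 had 0.60, 0.64 and 0.42 FPKM at 24 h and 0.70, 0.44 and 0.27 at 48 h. Its fragment ratio at 200 nM 48 h was 0.376 (0.190 to 0.703), and its log2 difference there with the pseudocount of 0.1 was -1.11, and -0.92 against DMSO 24 h. KCNJ14, at the lower bound, had 0.50, 0.62 and 0.32 FPKM at 24 h and 0.47, 0.56 and 0.46 at 48 h. KCNJ5 peaked at 0.84 FPKM and overlaps its antisense gene, at 1.70 to 2.03, so its value is uncertain where strand was not used.

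Families differed in which member they used. The most abundant KCNA member was KCNA7, a voltage-gated pore, at most 0.77 FPKM. The silent subunits KCNG2 and KCNV2 peaked at 0.18 each and the sodium-activated channel KCNT2 at 0.22. All 14 inward rectifiers of the KCNJ family stayed below an FPKM of 1, as did all 7 KCNH members. Of the 11 tandem-pore KCNK genes, 2 reached it.

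Over all 75 members the median log2 difference from DMSO was 0.03 with either dose at 24 h, beside 0.01 and 0.03 over all genes. With 100 nM and 200 nM for 48 h the member medians were 0.00 and 0.04, beside -0.01 and 0.01. These medians say little about size, since the pseudocount of 1 holds genes of low FPKM near 0, and with a pseudocount of 0.1 the 24 h medians were 0.18 and 0.19, beside 0.02 and 0.05 over all genes. Among genes that peaked between 0.3 and 1, the 19 members had medians of 0.65 and 0.46 with that pseudocount, and all 1486 genes 0.32 and 0.51. Counting any size, 100 nM for 24 h gave 43 members above DMSO (57.3%, beside 51.7% of all genes). It gave 16 below (21.3%, beside 40.8%) and 16 equal. With 200 nM for 24 h, 45 were above (60%, beside 53.5%), 21 below (28.0%, beside 40.4%) and 9 equal. At 48 h, 29 were higher at 100 nM (38.7%, beside 41.4%) and 37 lower (49.3%, beside 50.7%). With 200 nM, 48 were higher (64.0%, beside 51.6%) and 19 lower (25.3%, beside 42.5%). Among genes with a mean FPKM below 1, 63 members and 5205 genes in all, the shares higher with 100 nM and 200 nM for 24 h were 55.6% and 63.5% of members, beside 51.8% and 60.1%. For 48 h they were 38.1% and 61.9%, beside 29% and 54.5%. The shares lower with 100 nM for 48 h were near each other, at 47.6% of these members and 46.8% of these genes. In that comparison 9 of the 63 members and 1258 of the 5205 genes were equal. From DMSO 24 h to DMSO 48 h the member median was 0.01, with 41 higher (54.7%, beside 49.9%) and 21 lower (28.0%, beside 42.7%).

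Of a list of 41 other genes of potassium handling, 35 were analysed here, and 25 of these reached an FPKM of 1. The counts cover these genes alone. At 100 nM 24 h 0 of 25 tested were called, and at 200 nM 24 h 1 was higher and 0 lower, where 4.47% of all tested genes were higher. None was called at 48 h against DMSO, and 1 was higher from 100 nM to 200 nM at 48 h, where 1.71% of all were. NEDD4L, a ubiquitin ligase that acts on ion channels, had an FPKM of 51.51, 67.82 and 103.01 in DMSO, 100 nM and 200 nM at 24 h and 50.23, 44.78 and 55.96 at 48 h. Its log2 difference at 200 nM 24 h was 0.99, and 1.02 against DMSO 48 h, on either side of the 2-fold line. TMEM175, a potassium channel of lysosomes, had 3.45, 6.63 and 8.41 FPKM at 24 h and 5.69, 5.63 and 4.50 at 48 h. It was called at 200 nM 24 h with 1.08, and was at 0.49 against DMSO 48 h. ATP1B1, a beta subunit of the sodium pump, had 59.38, 80.49 and 118.89 FPKM at 24 h and 78.03, 65.66 and 134.78 at 48 h. Its log2 difference at 200 nM 24 h was 0.99, and 0.60 against DMSO 48 h, and at 200 nM 48 h it was 0.78. ATP1B1 was called from 100 nM to 200 nM at 48 h with 1.03, a call that ended with median-of-ratios scaling.

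**Figure D4:**
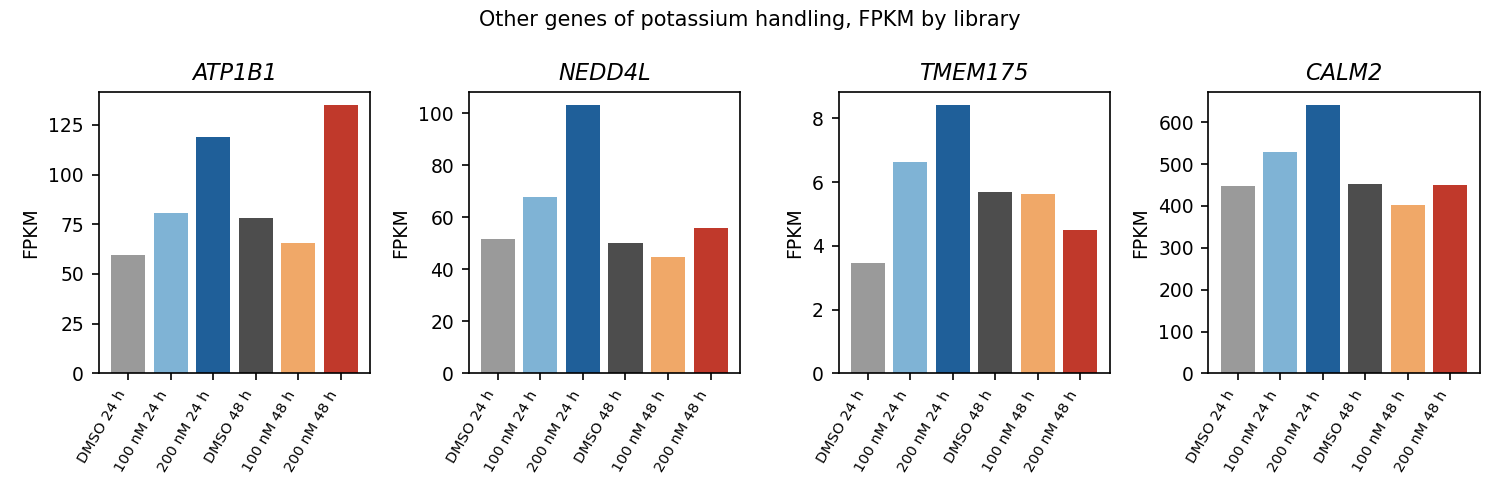
FPKM of 4 genes of potassium handling, 1 bar per library, grey for DMSO. ATP1B1 and NEDD4L are highest at 200 nM within each time, TMEM175 and CALM2 are highest at 200 nM 24 h, and CALM2 varies least.

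Further genes of the list with a high mean FPKM for their class were not called. FXYD5, a regulatory subunit of the sodium pump, had 302.56, 277.42 and 241.94 FPKM at 24 h and 271.50, 272.90 and 256.47 at 48 h. CALM2, a calmodulin gene whose protein is the calcium sensor of KCNN channels, had 448.00, 529.31 and 640.09 FPKM at 24 h and 453.13, 403.06 and 451.13 at 48 h. HCN2, a cation channel of the pacemaker group, had 2.88, 3.39 and 5.17 at 24 h and 4.47, 5.66 and 5.28 at 48 h. ABCC9, a regulatory partner of KCNJ11, had 1.36, 2.54 and 2.49 at 24 h and 1.44, 1.23 and 2.37 at 48 h, while ABCC8 reached 0.01. SLC12A4, a potassium-chloride cotransporter, lay between 9.38 and 11.68 FPKM, TMEM38B, an intracellular cation channel, between 9.24 and 11.16, and LRRC26, a gamma subunit of the large-conductance channel, between 3.26 and 4.33. AMIGO1, an adhesion protein that binds voltage-gated channels, lay between 2.15 and 2.73.

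Of the 5 markers of other cells, all 5 were in the files, and their summed FPKM was 19.9, 17.6 and 14.3 with DMSO, 100 nM and 200 nM at 24 h and 22.6, 25.3 and 20.9 at 48 h. PECAM1 had 0.38, 0.64 and 1.25 FPKM at 24 h and 1.52, 1.07 and 2.33 at 48 h. Like KCNS3, it was lowest in DMSO 24 h and highest at 200 nM 48 h. Of the 11893 genes that reached an FPKM of 1, 27.1% were lowest in DMSO 24 h, so that part of the likeness is common. MBP, the most abundant, lay between 11.90 and 23.26, PTPRC between 0.76 and 1.01, GFAP at most at 0.15 and RBFOX3 at most at 0.10. RBFOX3 was listed at 0 in DMSO 48 h. The part of other cells in these results was not tested.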

How the data were processed

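RNA-seq libraries of MDA-MB-231 cells, 1 per condition, were compared. The values are FPKM per gene, which the authors calculated and deposited; their processing notes name Bowtie2, RSEM and build hg19, with no versions. Whether strand was used in counting is not given in the sources used here. Current symbols came from the RefSeq table of GRCh38.p14, joined on NCBI Gene ID, and 16585 of 16623 genes matched. Members and lists were chosen with earlier results of these data known.

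Differences are in log2(FPKM + 1), with calls at 2-fold where either library reached FPKM 1. Named are members reaching FPKM 1 or called, the most abundant of each family, 5 low members from each end of the 200 nM 24 h differences, and other genes of potassium handling called or highest in mean FPKM in their class. Some genes that this rule takes are not reported here. Depth was inferred from genes with 1 transcript of 500 to 1500 bases, with GENCODE release 29 lengths, and fragment numbers are approximate. Alternatives were other pseudocounts, filters, scalings, thresholds, subunit lists and DMSO references. The calls were tested on simulated data. Python 3.11.15, numpy 2.4.6, pandas 2.3.3, scipy 1.17.1 and matplotlib 3.10.9 were used.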

Additional observations from a re-analysis of the deposited data

Results flagged for a closer look

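With 100 nM PCI-24781, 5 expressed members differed from DMSO by at least 0.25 on the log2 scale in opposite directions at 24 h and 48 h. That is 31.2% of the 16 expressed members, beside 10.6% of the 11893 genes reaching an FPKM of 1. Both sets were chosen by their highest library and were not matched for level, so the shares are descriptive only. KCNE1, 1 of the 5, reached an FPKM of 1 only with PCI-24781, so the choice favours its rise at 24 h. KCNS3 had log2 differences of 1.34 at 24 h and -0.50 at 48 h. KCNE1 had 0.77 and -0.44, KCNQ3 had 0.77 and -0.35, and KCNAB1 had 0.40 and -0.35. KCNK6 went the other way, with -0.38 at 24 h and 0.51 at 48 h. Against DMSO 24 h, 100 nM 48 h was at 0.65 for KCNS3, 0.07 for KCNE1, 0.12 for KCNQ3 and 0.18 for KCNAB1, so for these 4 the sign at 48 h turned with the DMSO library, and it was at 0.25 for KCNK6, which kept its sign. With 1 library per condition, the difference between the times was not tested. With 200 nM, 0 of the 16 expressed members passed 0.25 in opposite directions, beside 0.748% of the 11893 genes.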

How the results depend on the processing

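No paired analysis was run: the labels pair no libraries as replicates and every condition has 1 library. Medians are called moved past 0.1 on the log2 scale and counts past 1.5 times. Causes were not tested. Shares over all genes are given above for the main rule only. The counts of members called under other settings have no such share beside them, so they do not set members apart from other genes. With pseudocounts of 0.1 and 0.01, members higher were 3 and 3 with 100 nM for 24 h, 2 and 2 with 200 nM for 24 h (1 and 1 lower), 2 and 2 in DMSO 48 h against DMSO 24 h, and 2 and 2 from 100 nM to 200 nM at 48 h. The member medians were then 0.18 and 0.26, 0.19 and 0.48, 0.14 and 0.25, and 0.16 and 0.25 in these comparisons, and 0.19 and 0.20 at 200 nM 48 h. In TPM, members higher were 2 at 100 nM 24 h, 4 at 200 nM 24 h and 2 from 100 nM to 200 nM at 48 h. At 1.5-fold they were 3, 3 (3 lower) and 1. With DMSO 48 h as reference, chosen after seeing the data, 0 were higher at either dose of 24 h, and with DMSO 24 h 1 was higher at 200 nM 48 h. With FPKM of at least 1 in both libraries, the median between the DMSO libraries was 0.18. At a minimum of 0.5, members expressed were 20, 25 and 26 in DMSO, 100 nM and 200 nM at 24 h and 21, 19 and 25 at 48 h. With median-of-ratios factors, 1 member fell in dose order at 48 h.

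For the other genes of potassium handling, whose alternatives were also chosen after seeing the data, a 1.5-fold threshold gave 1 higher at 100 nM 24 h, 4 at 200 nM 24 h, 2 at 200 nM 48 h, 1 in DMSO 48 h, and 1 and 3 in the dose steps of 24 h and 48 h, with 1 lower at 100 nM 48 h. In TPM 3 were higher at 200 nM 24 h, and with a pseudocount of 0.1 2 were there and 1 at 200 nM 48 h. With median-of-ratios factors 0 were from 100 nM to 200 nM at 48 h. These counts too have no share over all genes under the same setting beside them.

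For the 31 named members, 300 differences under the 2 filters keep their value by construction and say nothing of stability. Of 1245 under the other settings, 1151 kept their call, or lack of one, without a reversal of sign, 29 became calls, 2 lost a call (KCNS3 with DMSO 48 h), 63 that were not called changed sign, 4 of them with median-of-ratios factors and the rest with the other DMSO library, and 0 called differences reversed. A call needs FPKM 1, so low members that pass 2-fold with a smaller pseudocount stay without one. Depth limits members below about 0.1 FPKM, which rest on a few fragments.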
